A study of Mus musculus with 18 samples.

Results

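The collagen genes were followed across fibroblasts, induced pluripotent stem (iPS) cells and embryonic stem (ES) cells of the mouse. A gene was taken as a collagen when the platform annotation gave its probe set 1 symbol made of Col, a number, a and a number. This left 44 collagen genes of 19937 genes on the array. Col6a5 and Col6a6 had 2 probe sets each, and the brighter was used. The genes were sorted by the assembly their chains form. There were 11 fibrillar collagens, 6 type IV collagens, 6 type VI collagens, 9 fibril-associated collagens (FACITs), 3 short-chain network collagens, 4 collagens of the basement membrane zone and 5 others.

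Expression was measured on 18 arrays in 6 groups of 3. The MEFs were primary embryonic fibroblasts of CD1 mice at low passage, grown in serum without feeder cells. EOS3F-24, EOS3F-28 and EOS3F-29 were iPS lines made from CD1 MEFs with pMX retroviruses carrying Oct4, Klf4 and Sox2, and each line is 1 clone. By its label EOS3F-24 was only partly reprogrammed, whereas the labels give EOS3F-28 and EOS3F-29 as full iPS lines. A further group was EOS3F-24 after conversion with 2i, which here means a MEK inhibitor at 2 μM and a GSK inhibitor at 12 μM in ES medium with LIF. The last group was the J1 ES line. All 5 iPS and ES groups shared feeder cells that had been arrested and LIF, and the medium of the EOS3F lines held 1 μg/mL puromycin, which is not stated separately for the converted cells. The labels do not say whether feeder cells were taken off before RNA extraction. They also do not say whether the 3 arrays of a group came from separate cultures, so the p-values rest on a spread between arrays that may be technical. In the comparisons of EOS3F lines with MEFs, reprogramming cannot be told apart from culture on feeders, medium and puromycin. For J1 cells against MEFs, cell type cannot be told apart from line, feeders and medium. Between converted and partial cells, conversion cannot be told apart from the MEK and GSK inhibitors in the medium. If the converted cells were grown without puromycin, it cannot be told apart from that either. Between full iPS and J1 cells, reprogramming cannot be told apart from line of origin and puromycin.

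Collagens are secreted proteins built of 3 chains wound into a helix. Fibrillar collagens assemble into the banded cables of skin, bone, tendon and cartilage, and fibroblasts are their best known source. Type IV collagen forms the sheet-like network of basement membranes, on which laminins and nidogens are anchored, and the early embryo makes such membranes well before it makes connective tissue. A collagen chain must be hydroxylated, folded with the chaperone Hsp47 (Serpinh1), trimmed and cross-linked before it bears load, so a fibroblast expresses these helpers together with the chains.

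Values are log2 expression values of the deposited table, and a difference of 1 is a 2-fold change. Differences are given with their standard error (SE) and are also put as a percentage of the MEF level. A gene was called where the adjusted p of limma's moderated test (Benjamini-Hochberg, 19937 genes) was under 0.05. A probe set's level also depends on its probes, so levels were compared between arrays for 1 gene and never between genes. Array medians lay between 3.92 and 4.11, and 20 of the 44 collagens had a group mean under 5 in all 6 groups. These 20 dim genes ran from 3.42 to 5.04 over all arrays, close to the array medians, which is called near background here. They were Col11a2, Col24a1 and Col27a1 of the fibrillar class, Col4a3, Col4a4 and Col4a6 of type IV, Col6a4, Col6a5 and Col6a6 of type VI, and 11 of the other classes.

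The marker lists followed the labels in part. Of 8 markers of pluripotent cells such as Nanog, Esrrb and Zfp42, 0 had a group mean of at least 5 in MEFs, 2 had it in partial iPS cells and 8 in each of the other 4 groups. The 19 feeder and fibroblast markers, which hold no collagen, averaged 7.70, 7.75 and 8.05 in the 3 MEF arrays. They averaged 7.02, 5.96 and 5.85 in partial iPS cells, 6.56, 5.50 and 5.85 in converted cells, and 6.32, 5.39 and 5.77 in J1 cells. In EOS3F-28 they averaged 6.55, 5.68 and 6.14, and in EOS3F-29 7.34, 5.79 and 5.97. Replicate 1 stood highest in all 5 feeder-grown groups. The log2 of their summed level ran from 12.7 to 13.1 in MEFs, 11.1 to 12.1 in partial cells, 10.6 to 11.8 in converted cells, 10.7 to 11.7 in EOS3F-28, 10.9 to 12.5 in EOS3F-29 and 10.4 to 11.5 in J1 cells. Of the 19, 17 had a mean of at least 5 in MEFs and 14 or 15 in each feeder-grown group.

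This pattern reached the collagens. Over all genes, 5.11% were highest in replicate 1 in all 5 feeder-grown groups. Of the feeder markers it was 18 of 19, of the pluripotent cell markers 0 of 8, and of the collagens 14 of 44. Among the fibrillar collagens it was 6 of 11, among type VI 3 of 6 and among type IV 2 of 6. Averaged over the 5 groups, replicate 1 exceeded the mean of replicates 2 and 3 by 1.57 for Col12a1, 1.49 for Col5a2, 1.44 for Col3a1, 1.33 for Col1a2 and 1.31 for Col1a1. These were the 5 largest excesses. For the type IV chains that were not dim, the excess was 0.79 for Col4a2, 0.52 for Col4a1 and 0.17 for Col4a5. Among other fibrillar chains the excess was 0.67 for Col5a1, 0.21 for Col11a1, 0.19 for Col2a1 and 0.07 for Col5a3, so the classes overlapped. For Col18a1 it was 0.12, and replicate 1 was highest in 3 of 5 groups. How much of a collagen level came from feeder cells was not tested. The medians of the fibrillar and type IV collagens, and some of the genes, are therefore given with and without the 5 replicate 1 arrays. Replicates 2 and 3 were also grown on feeder cells, so values without replicate 1 may still hold feeder signal.

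**Figure D1:**
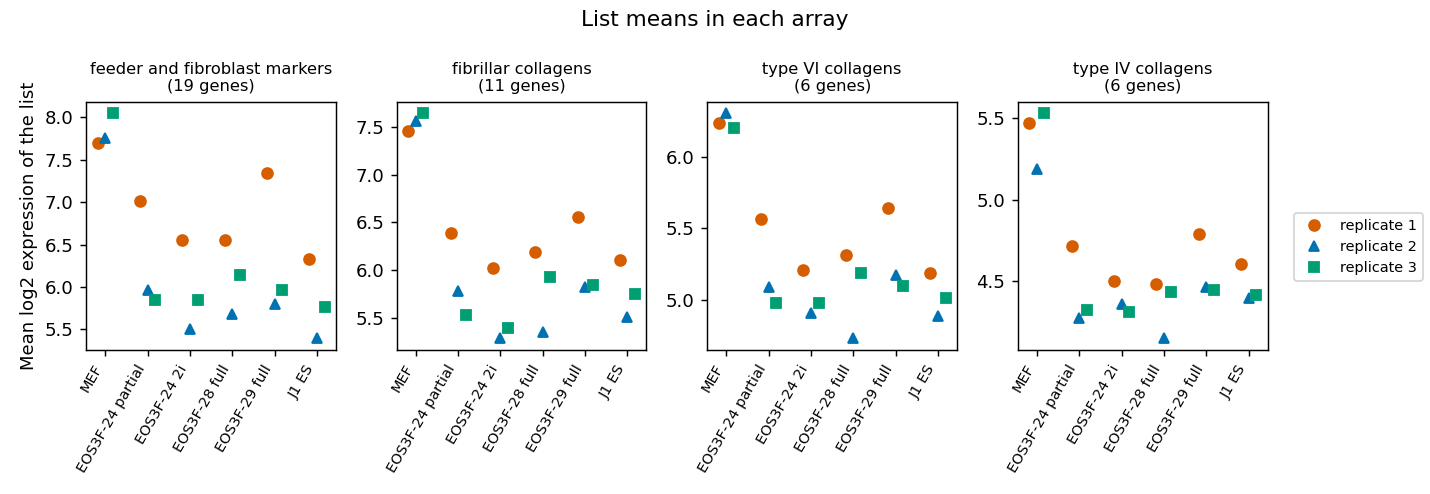
Mean log2 expression of 4 gene lists in each of the 18 arrays (y axes, 1 per list and not starting at 0) by group (x axis), with circles, triangles and squares for replicates 1, 2 and 3. Replicate 1 of each feeder-grown group was the highest of its 3 arrays for the feeder markers and for the fibrillar, type VI and type IV collagens.

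The MEF arrays also differed among themselves. Replicate 2 held Krt5 at 7.70 and Krt14 at 7.10, against 3.49 and 3.62 for Krt5 and 4.10 and 4.18 for Krt14 in replicates 1 and 3. Both are keratins of basal epithelium. The log2 of the summed level of 11 basal keratinocyte markers ran from 7.31 to 9.17 over the MEF arrays. The part of these cells in the collagen values was not tested. Results that turned on MEF replicate 2 are given without it.

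The fall from MEFs was shared by all feeder-grown cells. In partial iPS cells 21 of 44 collagens were lower than in MEFs, where 10.0% of all genes were called lower, and 1 was higher, where 13.7% were called higher. In full iPS cells, taken as the mean of both lines, 21 were lower against 17.8% of all genes and 2 higher against 17.1%. Converted cells had 21 lower against 17.9% and 3 higher against 19.6%, and J1 cells had 21 lower against 17.5% and 5 higher against 20.6%. The 4 comparisons share the MEF arrays, so they are not independent. By name, 20 collagens were lower in all 4. The share of all genes lower in all 4 was not counted, and it cannot exceed the 10.0% lower in partial cells. A fall of at least 2-fold was called for 16, 15, 17 and 17 collagens in partial, full, converted and J1 cells, where 3.31%, 4.72%, 6.26% and 6.34% of all genes fell as far. Across all 44 the median difference was -0.33, -0.19, -0.20 and -0.14 in that order, and across all genes it was 0.039, 0.035, 0.030 and 0.055. In bulk RNA, fewer cells that make collagen and less collagen RNA per cell cannot be told apart.

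**Figure D2:**
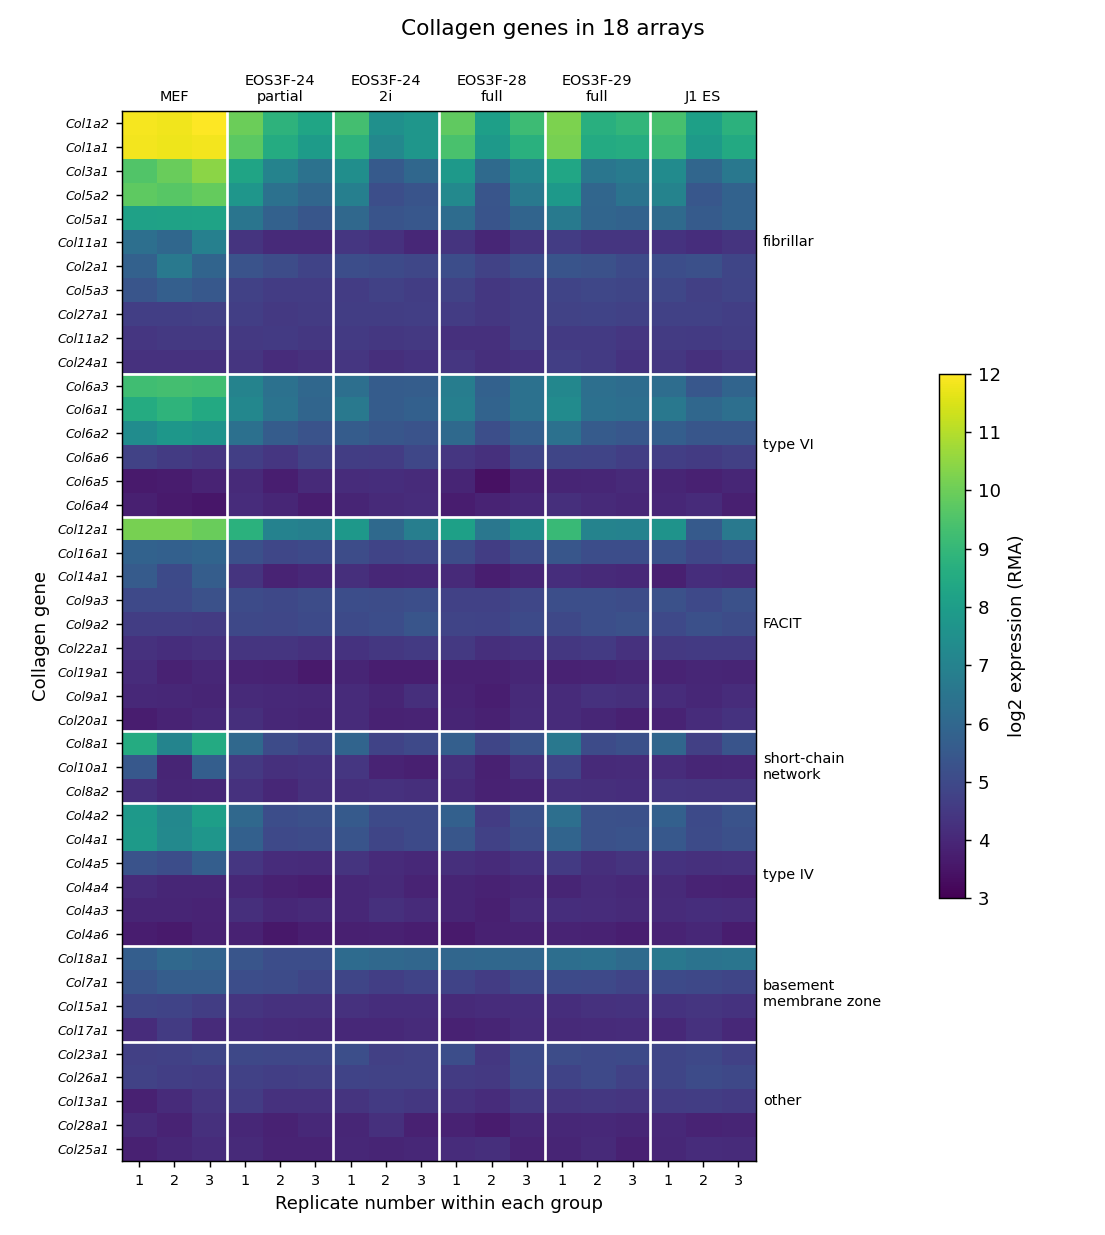
Log2 expression (colour, from 3 to 12) of the 44 collagen genes (rows, in blocks by class) in the 18 arrays (columns, 3 replicates per group). The bright rows at the left are collagens high in MEFs, and the rows of the 20 dim genes stay dark in all groups.

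Fibrillar collagens had the lowest median of the 7 classes in every comparison with MEFs. This rank depends on the dim genes, 3 of 11 in this class against 3 of 6 in type IV and 3 of 6 in type VI. Among genes that were not dim, differences in partial cells ran from -3.08 to -0.87 in the fibrillar class. They ran from -2.36 to -1.15 in type IV and from -2.80 to -1.82 in type VI, so the classes overlapped. Over all genes, 10.0% to 17.9% were called lower in the 4 comparisons with MEFs and 13.7% to 20.6% higher. Of the 11 fibrillar collagens, 8 were lower in each and 0 were higher (limma, 0 also at an unadjusted p under 0.05). Their median difference was -2.23 in partial, -2.05 in full, -2.17 in converted and -2.12 in J1 cells. Without the replicate 1 arrays it was -2.32, -2.11, -2.26 and -2.14. Col11a2, Col24a1 and Col27a1, the 3 that were not called, are dim in all groups.

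Type I collagen is the main fibre of skin, tendon and bone and is made of chains encoded by Col1a1 and Col1a2. Col1a1 (probe set 10380419) stood at 11.84, 11.76 and 11.83 in the 3 MEF arrays. It stood at 9.75, 8.55 and 7.96 in partial and 8.81, 7.22 and 7.74 in converted cells, each in the order of replicates 1 to 3. Values were 9.43, 7.85 and 8.71 in EOS3F-28, 10.15, 8.49 and 8.58 in EOS3F-29 and 9.15, 7.90 and 8.46 in J1 cells. Every feeder-grown array lay below every MEF array, and the replicate 1 arrays came closest. The difference from MEFs was -3.06 ± 0.51 in partial cells (adjusted p = 0.000254) and -3.89 ± 0.51 in converted cells (adjusted p = 1.21e-05). These are 12.0% and 6.76% of the MEF level. Full iPS and J1 cells differed by -2.94 ± 0.45 and -3.31 ± 0.51. Leaving out the replicate 1 arrays gave -3.56, -3.41, -4.33 and -3.63 for partial, full, converted and J1 cells.

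Col1a2 (probe set 10536220) followed its partner chain. MEF arrays read 11.87, 11.81 and 11.97, and partial and converted arrays read 9.97, 8.83 and 8.30 and 9.30, 7.51 and 7.74. EOS3F-28 read 9.82, 8.08 and 9.16, EOS3F-29 10.24, 8.69 and 8.94 and J1 9.38, 8.12 and 8.77. The groups did not overlap with MEFs. Against MEFs the difference was -2.85 ± 0.53 in partial, -2.73 ± 0.46 in full, -3.70 ± 0.53 in converted and -3.13 ± 0.53 in J1 cells, with adjusted p from 2.54e-05 to 0.000603. With the replicate 1 arrays left out these became -3.32, -3.17, -4.26 and -3.44.

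Col3a1 encodes the type III chain that mixes with type I fibres in skin and vessel walls. It (probe set 10346015) read 9.56, 9.94 and 10.44 in MEFs, 8.27, 7.02 and 6.38 in partial and 7.46, 5.53 and 6.02 in converted cells. In EOS3F-28, EOS3F-29 and J1 cells it read 7.84, 6.11 and 7.11, then 8.32, 6.54 and 6.75, then 7.34, 5.99 and 6.61. All 15 feeder-grown arrays lay below the lowest MEF array. The difference from MEFs was -2.76 ± 0.58 in partial, -2.87 ± 0.50 in full, -3.65 ± 0.58 in converted and -3.34 ± 0.58 in J1 cells, or 7.99% of the MEF level in converted cells. Without replicate 1 it was -3.29, -3.35, -4.21 and -3.69.

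Windows around the annotated starts of Col1a2 and Col3a1 are shown because both genes fell together and with their class. The 300 bases run from 250 before the start to 50 after it (RefSeq, GRCm38.p6, gene strand, 5′ to 3′). Col1a2 lies at chr6:4505368-4505667 and Col3a1 at chr1:45311288-45311587, both on the plus strand. Capitals mark matches to 3 motifs on either strand. The TATA box was searched as TATAAA. The GC box was searched as GGGCGG. The third, the CCAAT box, was searched as the letters of its name. The Col1a2 window held 2 GC boxes and 2 CCAAT boxes and the Col3a1 window 1 TATA box. A window was found for 35 of the 44 collagens, 38 windows in all.
Col1a2: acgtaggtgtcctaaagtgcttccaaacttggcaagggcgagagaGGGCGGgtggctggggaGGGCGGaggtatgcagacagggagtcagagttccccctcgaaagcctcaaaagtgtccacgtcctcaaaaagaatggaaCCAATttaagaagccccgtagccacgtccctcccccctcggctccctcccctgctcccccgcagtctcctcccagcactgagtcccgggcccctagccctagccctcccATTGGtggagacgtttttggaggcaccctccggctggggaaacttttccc
Col3a1: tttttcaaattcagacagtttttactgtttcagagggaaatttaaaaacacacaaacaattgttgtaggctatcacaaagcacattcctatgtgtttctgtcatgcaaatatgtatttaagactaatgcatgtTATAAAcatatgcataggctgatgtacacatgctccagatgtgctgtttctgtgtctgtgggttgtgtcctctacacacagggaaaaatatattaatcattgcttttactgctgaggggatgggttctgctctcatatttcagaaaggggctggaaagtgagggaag
Of the 38 windows, 23 held a GC box, 13 a CCAAT box and 5 a TATA box. Over the 32851 windows of this length in the table the shares were 35.7%, 37.4% and 13.6%. A match describes these letters only.

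Type V collagen seeds type I fibrils and sets their width, and its chains come from Col5a1, Col5a2 and Col5a3. Col5a2 (probe set 10354309), the neighbour of Col3a1 on chromosome 1, had the largest fall of the 44 collagens in each of the 4 comparisons. It read 9.77, 9.68 and 9.87 in MEFs, 7.74, 6.36 and 5.97 in partial and 6.89, 5.17 and 5.35 in converted cells. It read 7.24, 5.39 and 6.64 in EOS3F-28, 7.85, 5.99 and 6.41 in EOS3F-29 and 7.03, 5.46 and 5.82 in J1 cells. The lowest MEF array was above the highest of the 15 others. Its difference from MEFs was -3.08 ± 0.58 in partial, -3.19 ± 0.50 in full, -3.97 ± 0.58 in converted (adjusted p = 3.19e-05) and -3.67 ± 0.58 in J1 cells. The converted cells held 6.38% of the MEF level. Without replicate 1 the values were -3.61, -3.67, -4.51 and -4.13.

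Col5a1 (probe set 10470462) read 8.13, 8.18 and 8.21 in MEFs, 6.49, 5.80 and 5.42 in partial and 6.03, 5.34 and 5.43 in converted cells. In EOS3F-28, EOS3F-29 and J1 cells the arrays read 6.18, 5.34 and 5.90, then 6.72, 5.92 and 5.82, then 6.10, 5.57 and 5.82. The spread inside groups was smaller than for Col5a2. The difference from MEFs ran from -2.57 ± 0.28 in converted to -2.19 ± 0.24 in full iPS cells. Col5a3, with group means between 4.62 and 5.52, was also called in all 4 comparisons, at -0.87 ± 0.11, -0.76 ± 0.092, -0.87 ± 0.11 and -0.70 ± 0.11.

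The cartilage chains of this class were lower in the feeder-grown cells as well. Col11a1 (probe set 10495449), whose type XI chain sits inside cartilage fibrils, read 6.28, 6.0 and 6.91 in MEFs, 4.37, 4.08 and 4.07 in partial and 4.42, 4.28 and 4.0 in converted cells. It read 4.37, 3.97 and 4.36 in EOS3F-28, 4.60, 4.40 and 4.41 in EOS3F-29 and 4.31, 4.17 and 4.34 in J1 cells. Its feeder-grown values lay between 3.97 and 4.60, near background. The difference from MEFs was -2.23 ± 0.18, -2.05 ± 0.16, -2.17 ± 0.18 and -2.12 ± 0.18 for partial, full, converted and J1 cells. It had the lowest adjusted p of all collagens in each of the 4, from 3.20e-08 to 1.14e-07.

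Col2a1 encodes type II collagen, the main cartilage fibre. Its probe set (10432045) read 5.78, 6.62 and 5.89 in MEFs, with replicate 2 the highest. It read 5.29, 5.09 and 4.80 in partial, 5.13, 5.01 and 4.93 in converted, 5.11, 4.77 and 5.14 in EOS3F-28, 5.34, 5.22 and 5.03 in EOS3F-29 and 5.13, 5.20 and 4.88 in J1 cells. The groups did not overlap with MEFs. The difference was -1.04 ± 0.18, -0.99 ± 0.16, -1.07 ± 0.18 and -1.03 ± 0.18 for partial, full, converted and J1 cells, and without MEF replicate 2 it was -0.77, -0.73, -0.81 and -0.76. Of 8 chondrocyte markers such as Acan and Sox9, 0 had a group mean of at least 5 in any group.

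**Figure D3:**
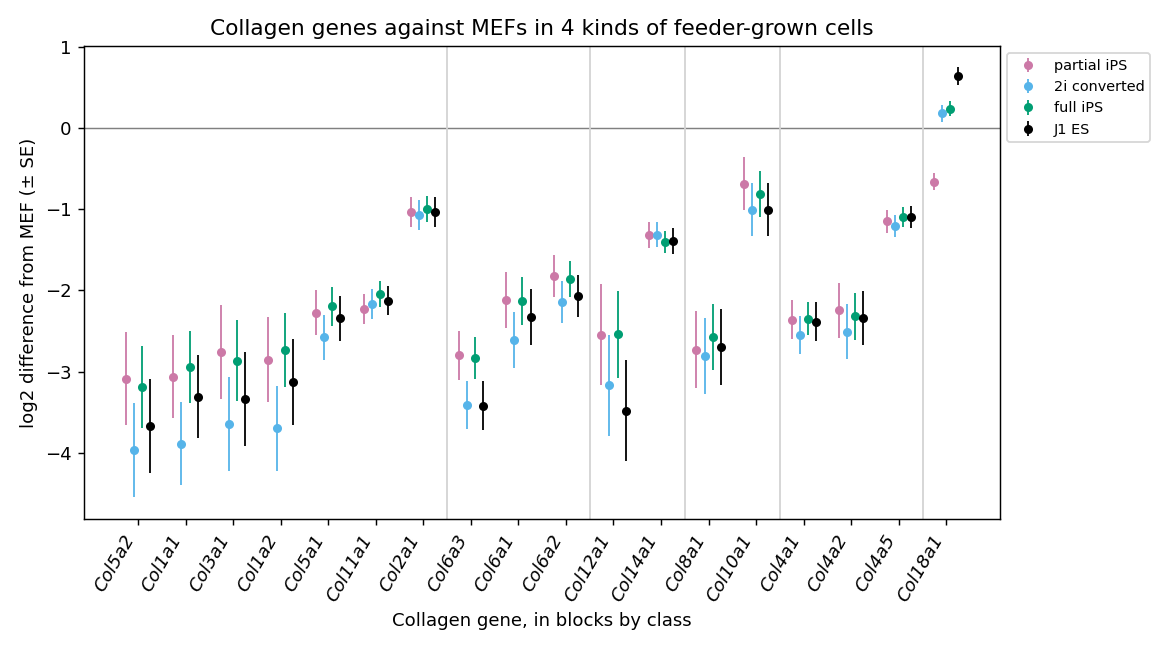
Log2 difference from MEFs with its SE (y axis, points and bars) for 17 collagens with a group mean of at least 8 or a called 2-fold change, and for Col18a1 (x axis, in blocks by class), in partial iPS, converted, full iPS and J1 cells. The 17 lie below 0 in all 4, with Col5a2 in converted cells lowest at -3.97, and Col18a1 lies below 0 in partial cells and above 0 in the other 3. The 17 were picked on levels that include MEFs and on these same differences, so their place below 0 is partly set by the choice. At any p, 25 to 31 of all 44 collagens were lower than in MEFs, where 42.7% to 46% of all genes were.

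Type IV collagens, the network of basement membranes, moved in the same direction as the fibrillar class. Of 6, 3 were lower in each comparison with MEFs, where 10.0% to 17.9% of all genes were, and 0 were higher against 13.7% to 20.6%. At an unadjusted p under 0.05, 0 were higher in partial, full and converted cells and 1 in J1 cells (limma). Col4a3, Col4a4 and Col4a6, the 3 that were not called, are dim and stayed between 3.58 and 4.24 on all arrays. They hold the class median at -0.65, -0.56, -0.61 and -0.58 in partial, full, converted and J1 cells. Without the replicate 1 arrays this median was -0.73, -0.57, -0.66 and -0.63. In both classes every member that was not dim was lower than in MEFs in all 4 comparisons. A gene was not dim if any group mean, MEFs included, reached 5. Of the fibrillar collagens, 8 reached it in MEFs and 6 in each feeder-grown group. Of type IV, 3 reached it in MEFs and 2 in each feeder-grown group. For members that reached 5 in MEFs alone, a lower mean elsewhere follows from this rule.

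Col4a1 and Col4a2 encode the chains of the type IV collagen found in nearly all basement membranes and lie head to head on chromosome 8. Col4a1 (probe set 10576973) read 7.89, 7.25 and 7.75 in MEFs, 5.76, 4.98 and 5.06 in partial and 5.32, 4.88 and 5.03 in converted cells. Arrays of EOS3F-28, EOS3F-29 and J1 cells read 5.42, 4.73 and 5.11, then 5.91, 5.23 and 5.29, then 5.49, 5.04 and 5.20. The 15 feeder-grown arrays all lay below the MEFs. The difference was -2.36 ± 0.24 in partial, -2.35 ± 0.20 in full, -2.55 ± 0.24 in converted and -2.38 ± 0.24 in J1 cells, or 17.1% to 22.5% of the MEF level over the 5 groups. Without replicate 1 it was -2.61, -2.54, -2.67 and -2.50.

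Col4a2 (probe set 10570068) read 7.85, 7.21 and 8.03 in MEFs, 6.05, 5.11 and 5.20 in partial and 5.54, 5.0 and 5.03 in converted cells. It read 5.78, 4.61 and 5.20 in EOS3F-28, 6.28, 5.22 and 5.19 in EOS3F-29 and 5.75, 5.02 and 5.31 in J1 cells. In both genes MEF replicate 2 was the lowest of the MEF arrays and still above all others. The difference from MEFs was -2.25 ± 0.34, -2.32 ± 0.29, -2.51 ± 0.34 and -2.34 ± 0.34 for partial, full, converted and J1 cells.

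The stretch in which the RefSeq windows of Col4a1 and Col4a2 overlap is shown because both genes were lower in every comparison with MEFs and their starts lie side by side. It spans 78 bases at chr8:11312777-11312854 in GRCm38.p6, written on the plus strand, on which Col4a2 is read, with a GC box in capitals.
Col4a1 and Col4a2: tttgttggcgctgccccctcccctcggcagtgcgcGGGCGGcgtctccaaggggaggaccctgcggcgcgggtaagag
Col4a5 encodes a chain of the specialised type IV networks of kidney and other epithelia. Its probe set (10602105) read 5.32, 5.12 and 5.69 in MEFs, 4.41, 4.15 and 4.12 in partial and 4.36, 4.12 and 4.03 in converted cells. It read 4.21, 4.11 and 4.32 in EOS3F-28, 4.52, 4.20 and 4.34 in EOS3F-29 and 4.32, 4.25 and 4.29 in J1 cells. The feeder-grown arrays ranged from 4.03 to 4.52. The difference was -1.15 ± 0.14, -1.09 ± 0.12, -1.21 ± 0.14 and -1.09 ± 0.14 for partial, full, converted and J1 cells, while its neighbour on chromosome X, Col4a6, was dim in every group.

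Type VI collagen forms beaded filaments around cells and is assembled from the products of Col6a1, Col6a2 and Col6a3. These 3 were lower in all 4 comparisons with MEFs, where at most 10.0% of all genes were. Col6a3 (probe set 10356520) read 9.25, 9.32 and 9.23 in MEFs, 7.01, 6.37 and 6.02 in partial and 6.30, 5.60 and 5.66 in converted cells. It read 6.82, 5.80 and 6.36 in EOS3F-28, 7.17, 6.29 and 6.19 in EOS3F-29 and 6.21, 5.44 and 5.90 in J1 cells. The MEF arrays lay close together and far above every other array. The difference was -2.80 ± 0.30 in partial, -2.83 ± 0.26 in full, -3.41 ± 0.30 in converted and -3.42 ± 0.30 in J1 cells, with adjusted p from 1.47e-07 to 2.44e-06.

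Col6a1 and Col6a2 are neighbours on chromosome 10. Col6a1 (probe set 10370210) read 8.54, 8.87 and 8.48 in MEFs, 7.16, 6.41 and 5.95 in partial and 6.65, 5.63 and 5.77 in converted cells. It read 6.89, 5.87 and 6.34 in EOS3F-28, 7.35, 6.32 and 6.24 in EOS3F-29 and 6.60, 6.0 and 6.28 in J1 cells. Its difference from MEFs was -2.12 ± 0.34, -2.13 ± 0.30, -2.61 ± 0.34 and -2.33 ± 0.34 for partial, full, converted and J1 cells, with no overlap of arrays. Col6a2 (probe set 10370180) read 7.37, 7.76 and 7.60 in MEFs, 6.34, 5.61 and 5.32 in partial and 5.63, 5.39 and 5.29 in converted cells. Arrays of EOS3F-28, EOS3F-29 and J1 cells read 6.08, 5.17 and 5.69, then 6.34, 5.57 and 5.45, then 5.69, 5.42 and 5.43. The corresponding differences were -1.82 ± 0.26, -1.86 ± 0.23, -2.14 ± 0.26 and -2.07 ± 0.26. The remaining chains of the class, Col6a4, Col6a5 and Col6a6, were dim.

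Of the 9 FACITs, which coat the surface of fibrils, 3 were lower in all 4 comparisons, where at most 10.0% of all genes were. Col12a1 (probe set 10595211), which is common in dense connective tissue, read 10.14, 10.16 and 9.95 in MEFs, 8.74, 6.99 and 6.89 in partial and 7.79, 6.09 and 6.86 in converted cells. It read 8.12, 6.56 and 7.41 in EOS3F-28, 9.11, 7.04 and 7.0 in EOS3F-29 and 7.62, 5.56 and 6.63 in J1 cells. Its spread between replicates was the widest of the 17 collagens described array by array, up to an SD of 1.21 in EOS3F-29, yet no array reached the MEFs. The difference was -2.54 ± 0.62, -2.54 ± 0.54, -3.17 ± 0.62 and -3.48 ± 0.62 for partial, full, converted and J1 cells, with adjusted p from 0.000227 to 0.00559. Without replicate 1 it was -3.14, -3.08, -3.61 and -3.99.

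Col14a1 (probe set 10424140), a close relative of Col12a1, read 5.57, 5.02 and 5.64 in MEFs, 4.35, 3.91 and 4.03 in partial and 4.23, 4.02 and 4.05 in converted cells. It read 4.09, 3.77 and 3.97 in EOS3F-28, 4.18, 4.07 and 4.02 in EOS3F-29 and 3.81, 4.17 and 4.09 in J1 cells. All feeder-grown values were near background, and the groups did not overlap with MEFs. The difference was -1.32 ± 0.16, -1.40 ± 0.14, -1.31 ± 0.16 and -1.39 ± 0.16 for partial, full, converted and J1 cells. Col16a1 fell by less, with differences from -0.89 ± 0.14 in converted to -0.72 ± 0.14 in J1 cells.

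The short-chain network collagens form hexagonal lattices in tissues such as the cornea, vessel wall and growth plate. Col8a1 (probe set 10440091) read 8.53, 7.05 and 8.51 in MEFs, 6.06, 5.06 and 4.80 in partial and 5.90, 4.80 and 4.99 in converted cells. It read 5.72, 4.89 and 5.29 in EOS3F-28, 6.59, 5.05 and 5.21 in EOS3F-29 and 5.98, 4.69 and 5.33 in J1 cells. MEF replicate 2 was the lowest MEF array and above all others. The difference was -2.73 ± 0.47, -2.57 ± 0.41, -2.80 ± 0.47 and -2.70 ± 0.47 for partial, full, converted and J1 cells, and -3.22, -3.06, -3.29 and -3.19 without that array.

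Col10a1 (probe set 10362495), the collagen of hypertrophic cartilage, split the MEF arrays. It read 5.49, 3.92 and 5.70 in MEFs, 4.49, 4.24 and 4.31 in partial and 4.41, 3.90 and 3.79 in converted cells. Arrays of EOS3F-28, EOS3F-29 and J1 cells read 4.21, 3.84 and 4.28, then 4.83, 4.07 and 4.10, then 4.13, 3.97 and 3.99. Groups overlapped, because MEF replicate 2 lay among the feeder-grown arrays. The difference was called lower in full (-0.81 ± 0.28, adjusted p = 0.0320), converted (-1.01 ± 0.33, adjusted p = 0.0210) and J1 cells (-1.0 ± 0.33, adjusted p = 0.0209). In partial cells it was -0.69 ± 0.33 (adjusted p = 0.148) and not called. The 3 calls were lost without MEF replicate 1 or without MEF replicate 3, with adjusted p from 0.108 to 0.250. Each was also lost without some arrays of its own cells, with adjusted p from 0.0570 to 0.0834. These arrays were replicate 2 of EOS3F-28 and replicates 2 and 3 of EOS3F-29, converted and J1 cells. Without MEF replicate 2 all 4 differences were called, at -1.24, -1.37, -1.56 and -1.56.

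Few collagens were higher than in MEFs. Col9a2, a chain of the type IX collagen that decorates cartilage fibrils, was the 1 collagen called higher in all 4 comparisons, and was described by array after its values were seen. It read 4.65, 4.65 and 4.57 in MEFs, 4.96, 4.90 and 5.01 in partial, 5.01, 5.14 and 5.36 in converted and 4.98, 5.19 and 5.10 in J1 cells. In EOS3F-28 and EOS3F-29 it read 4.85, 4.80 and 5.02 and 4.96, 5.17 and 5.25. The groups did not overlap with MEFs, and replicate 1 was highest in 0 of the 5 feeder-grown groups. Col9a2 averaged 4.98 over all arrays. Its MEF, partial and EOS3F-28 arrays lay within the 3.42 to 5.04 of the dim genes, near background. It was not counted as dim only because of group means in feeder-grown cells. The difference was 0.34 ± 0.11 in partial (adjusted p = 0.0297), 0.38 ± 0.093 in full, 0.55 ± 0.11 in converted and 0.46 ± 0.11 in J1 cells. The call in partial cells was lost without any of the 6 arrays of that comparison, with adjusted p from 0.0521 to 0.0996. The other collagens called higher were Col6a4 in full and converted cells, Col6a5 in converted cells, and Col8a2, Col13a1, Col22a1 and Col18a1 in J1 cells. Col18a1 rose most, by 0.64 ± 0.11. The other 5 are dim, and their differences were 0.26 to 0.47.

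Collagens of the basement membrane zone changed by less than 2-fold against MEFs. Of 4, 3 were called lower in partial cells, against 10.0% of all genes, and 2 in each of the others, against 17.5% to 17.9%. Col7a1, the chain of anchoring fibrils, differed by -0.55 ± 0.11 in partial, -0.69 ± 0.096 in full, -0.77 ± 0.11 in converted and -0.61 ± 0.11 in J1 cells, all called lower. Col15a1, which lies beside basement membranes of muscle and vessels, differed by -0.46 ± 0.088, -0.58 ± 0.076, -0.56 ± 0.088 and -0.44 ± 0.088 in the same order, all called lower, from a MEF mean of 4.77. Col17a1, a membrane-spanning chain of hemidesmosomes, was dim and not called in any of these comparisons. The remaining calls in the class were of Col18a1, lower in partial and higher in J1 cells.

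Feeder-grown groups were set against each other in 4 comparisons, converted against partial, partial against full, full against J1 and EOS3F-28 against EOS3F-29. Col18a1 was the only collagen called in any of these 4 in the fit over all arrays. It encodes a basement membrane collagen whose end fragment is endostatin, and it was described by array because it was called between these groups, a choice made after its values were seen. Its probe set (10370259) read 5.69, 6.04 and 5.88 in MEFs, 5.37, 5.13 and 5.13 in partial and 6.16, 6.03 and 5.98 in converted cells. It read 5.97, 5.99 and 5.98 in EOS3F-28, 6.27, 6.32 and 6.13 in EOS3F-29 and 6.62, 6.43 and 6.49 in J1 cells. The 3 partial arrays were the lowest of all 18, and the 3 J1 arrays the highest. From low to high the group means ran partial, MEF, EOS3F-28, converted, EOS3F-29 and J1. Against MEFs, partial cells differed by -0.66 ± 0.11 (adjusted p = 0.000166) and J1 cells by 0.64 ± 0.11 (adjusted p = 0.000109). Converted cells (0.18 ± 0.11, adjusted p = 0.194) and full iPS cells (0.24 ± 0.092, adjusted p = 0.0531) were not called against MEFs. The full iPS difference was called without EOS3F-29 replicate 3 (0.27, adjusted p = 0.0382) and without MEF replicate 2 (0.32, 0.0203). It was also called with cyclic loess (0.30, 0.00707). With EOS3F-29 alone for the full lines it was 0.37 (adjusted p = 0.0135) and with EOS3F-28 alone 0.11 (0.512). EOS3F-28 and EOS3F-29 differed by -0.26 ± 0.11 (adjusted p = 0.375).

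The RefSeq windows at both annotated starts of Col18a1 are shown because this gene was called between feeder-grown groups. They lie on the minus strand of chromosome 10 in GRCm38.p6, the upstream start at chr10:77166481-77166780 and the downstream start at chr10:77113656-77113955, and are written on the gene strand with the same motifs in capitals.
Col18a1 upstream start: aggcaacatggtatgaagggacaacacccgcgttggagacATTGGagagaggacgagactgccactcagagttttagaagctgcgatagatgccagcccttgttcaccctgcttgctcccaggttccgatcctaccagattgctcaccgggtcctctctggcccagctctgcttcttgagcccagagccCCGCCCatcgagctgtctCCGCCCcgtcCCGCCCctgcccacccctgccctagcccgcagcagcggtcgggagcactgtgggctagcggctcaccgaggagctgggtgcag
Col18a1 downstream start: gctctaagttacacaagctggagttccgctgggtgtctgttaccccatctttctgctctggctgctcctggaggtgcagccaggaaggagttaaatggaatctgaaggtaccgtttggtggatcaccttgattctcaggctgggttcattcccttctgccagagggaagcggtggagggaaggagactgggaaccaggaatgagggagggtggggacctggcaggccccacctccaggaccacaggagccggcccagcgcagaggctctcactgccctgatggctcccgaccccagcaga
The upstream window held 3 GC boxes and 1 CCAAT box, and 0 matches to the 3 motifs were found in the downstream window. The probe set's values do not say which start was used.

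Against partial cells, Col18a1 was higher in converted cells by 0.84 ± 0.11 (adjusted p = 1.38e-05). It was the 1 collagen called higher in that comparison, where 9.36% of all genes were called higher. Lower calls numbered 0 of 44 (limma, 0 also at an unadjusted p under 0.05), where 13.0% of all genes were called lower. The equal replicate numbers went together in this comparison, and the fit with the replicate number as a block called 5 collagens, 4 of them lower, where it called 15.2% of all genes lower. These were Col18a1 and, lower in converted cells, Col1a1 at -0.82 (adjusted p = 0.0278), Col1a2 at -0.85 (0.0312), Col5a2 at -0.89 (0.0282) and Col6a3 at -0.61 (0.0168). Without the replicate 1 arrays the same 4 were called lower, with adjusted p from 0.0266 to 0.0491, against 13.0% of all genes. With the mean of the feeder markers as a covariate over the 15 feeder-grown arrays, Col18a1 was higher by 0.88 (adjusted p = 1.69e-06). In that fit Col1a1 (-0.41, adjusted p = 0.0298), Col3a1 (-0.44, 0.0493) and Col6a3 (-0.38, 0.0251) were lower, 3 of 44 collagens against 14.8% of all genes. In each of these fits the share of collagens called lower was below that of all genes. Of the feeder markers themselves 0 of 19 were called, and 17 of 19 were lower in converted cells at any p, with a median of -0.32.

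Col18a1 was also lower in partial than in full iPS cells, with a difference of -0.90 ± 0.092 (adjusted p = 1.65e-06). It was 1 of 44 collagens called lower against 5.78% of all genes. Higher calls numbered 0 (limma, 0 also at an unadjusted p under 0.05) against 12.8%. The value was -0.97 without the replicate 1 arrays and -0.90 with the feeder marker covariate. For type I, III and V collagens the same comparison gave differences between -0.12 and 0.11. In the same comparison the 8 pluripotent cell markers were all lower in partial cells, with a median of -3.13, and the feeder markers had a median of 0.031 with 0 of 19 called. Of the 11 basal keratinocyte markers 5 were higher in partial than in full iPS cells, against 12.8% of all genes. Of the same 11 markers, 6 were lower in converted than in partial cells, against 13.0%. Their summed level was 9.66 to 10.4 in partial cells, 7.75 to 7.82 in converted cells and 7.94 to 8.89 in the full lines, and their part in the Col18a1 difference was not tested.

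Full iPS cells differed from J1 cells in Col18a1 by -0.40 ± 0.092 (adjusted p = 0.0162). This was 1 collagen called lower against 3.47% of all genes, and 0 were called higher (1 at an unadjusted p under 0.05, limma) against 1.29%. The call was lost without J1 replicate 1 (-0.35, adjusted p = 0.0726), without J1 replicate 3 (-0.42, 0.0759) and without all replicate 1 arrays (-0.35, 0.124). With EOS3F-29 alone for the full lines it was -0.28 (adjusted p = 0.243). Without EOS3F-28 replicate 1 the count of called collagens was 2.

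In the fit over all arrays, the 2 full lines were not told apart by any collagen. The equal replicate numbers went together in this comparison too, and this fit does not use that pairing. A count over the 44 collagens with the replicate block is not given here. Against EOS3F-29, 0 of 44 were called lower in EOS3F-28, where 0.231% of all genes were, and 0 were called higher, where 0.301% were. At an unadjusted p under 0.05, 7 were lower and 0 higher (limma), and the lowest adjusted p was 0.173 for Col9a3. At any p, 43 of the 44 collagens were lower in EOS3F-28, as were 60.6% of all genes and 18 of 19 feeder markers. The collagen median was -0.20, the feeder marker median -0.20 and the median of all genes -0.043.

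**Figure D4:**
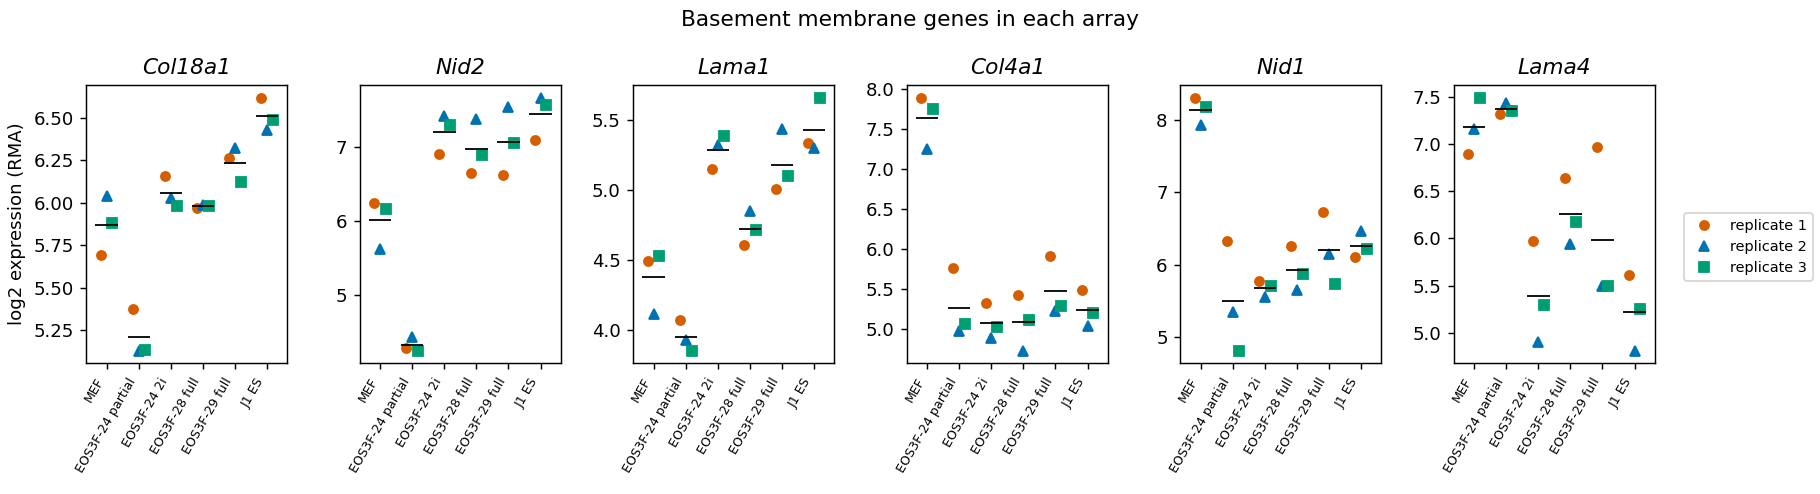
Log2 expression (y axes, 1 per gene and not starting at 0) of Col18a1, Nid2, Lama1, Col4a1, Nid1 and Lama4 in each array (circles, triangles and squares for replicates 1, 2 and 3, lines for group means) by group. Col18a1, Nid2 and Lama1 are lowest in partial cells, Col4a1 and Nid1 are highest in MEFs, and Lama4 is high in MEFs and partial cells.

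The partners of collagen in basement membranes were lower than in MEFs in most cases. Of 14, 9 were lower in partial cells against 10.0% of all genes, 10 in full against 17.8%, 10 in converted against 17.9% and 9 in J1 cells against 17.5%. Higher calls numbered 1, 4, 4 and 4 of 14 in that order, against 13.7%, 17.1%, 19.6% and 20.6% of all genes. These shares were not tested against each other. Nid1, which links laminin to type IV collagen, differed from MEFs by -2.63 ± 0.29 in partial, -2.07 ± 0.25 in full, -2.45 ± 0.29 in converted and -1.87 ± 0.29 in J1 cells. Sparc, a collagen-binding protein, differed by -1.91 ± 0.52, -1.94 ± 0.45, -2.18 ± 0.52 and -2.08 ± 0.52 in partial, full, converted and J1 cells. Lama5, a laminin chain of epithelia, was higher by 0.95 ± 0.22 in partial, 0.97 ± 0.19 in full, 0.89 ± 0.22 in converted and 0.80 ± 0.22 in J1 cells. The largest rises from MEFs were those of Nid2, by 1.01 ± 0.20 in full, 1.20 ± 0.23 in converted and 1.44 ± 0.23 in J1 cells. Lama1 rose by 0.58 ± 0.12 in full, 0.91 ± 0.14 in converted and 1.06 ± 0.14 in J1 cells, and its difference in partial cells was -0.43 ± 0.14.

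Nid2, the other nidogen, had another order of levels than Nid1. It read 6.24, 5.63 and 6.16 in MEFs, 4.29, 4.44 and 4.25 in partial and 6.91, 7.42 and 7.30 in converted cells. It read 6.65, 7.38 and 6.89 in EOS3F-28, 6.62, 7.55 and 7.06 in EOS3F-29 and 7.10, 7.67 and 7.58 in J1 cells. As with Col18a1, the partial arrays were the lowest of all 18. Converted cells exceeded partial cells by 2.88 ± 0.23 (adjusted p = 8.03e-08), and partial minus full iPS cells was -2.70 ± 0.20. Lama1, a laminin chain of the earliest embryonic basement membranes, read 4.07, 3.93 and 3.85 in partial, 5.15, 5.32 and 5.39 in converted and 5.34, 5.30 and 5.66 in J1 cells. It was higher in converted than in partial cells by 1.34 ± 0.14, and partial minus full iPS cells was -1.01 ± 0.12. Full iPS minus J1 cells was -0.48 ± 0.12 (adjusted p = 0.0285).

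Lama4, a laminin chain of vessels and mesenchyme, was high in MEFs and partial cells. It read 6.90, 7.16 and 7.49 in MEFs, 7.32, 7.44 and 7.35 in partial and 5.97, 4.90 and 5.29 in converted cells. It read 6.64, 5.95 and 6.18 in EOS3F-28, 6.97, 5.50 and 5.49 in EOS3F-29 and 5.61, 4.81 and 5.25 in J1 cells, with replicate 1 the highest in these 3 groups and in converted cells. Partial and MEF arrays overlapped. Converted minus partial cells was -1.98 ± 0.34, and partial cells exceeded full iPS cells by 1.25 ± 0.29. Pxdn, the peroxidase that cross-links type IV collagen, gave -0.81 ± 0.19 for converted minus partial cells and 0.67 ± 0.16 for partial minus full iPS cells, both called.

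The machinery that matures collagen fell with the chains. Of 29 measured genes for hydroxylation, folding, export, trimming and cross-linking, 22 were lower than in MEFs in partial cells against 10.0% of all genes, 23 in full against 17.8%, 22 in converted against 17.9% and 23 in J1 cells against 17.5%. The number higher was 2 in partial cells against 13.7% of all genes, and 0 in the others against 17.1% to 20.6%. The list's median difference was -0.83, -1.07, -1.21 and -1.04. Serpinh1, the collagen chaperone Hsp47, read 8.79, 8.94 and 8.54 in MEFs, 6.78, 5.68 and 5.74 in partial and 6.58, 5.55 and 5.52 in converted cells. It differed from MEFs by -2.69 ± 0.40, -2.62 ± 0.35, -2.88 ± 0.40 and -2.76 ± 0.40 in partial, full, converted and J1 cells. Tll1, a protease that trims procollagen, differed by -2.67 ± 0.36, -2.61 ± 0.31, -2.65 ± 0.36 and -2.59 ± 0.36 in the same order. Loxl1, a cross-linking oxidase, differed by -2.48 ± 0.44, -2.49 ± 0.38, -2.62 ± 0.44 and -2.65 ± 0.44.

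Loxl4, another cross-linking oxidase, was high in the partial line. It read 5.41, 5.14 and 5.63 in MEFs, 5.89, 6.40 and 6.36 in partial and 4.05, 3.44 and 3.56 in converted cells. It read 4.89, 4.88 and 4.73 in EOS3F-28, 4.35, 4.21 and 3.95 in EOS3F-29 and 4.20, 3.61 and 3.64 in J1 cells. The 3 partial arrays were the highest of all 18. Partial cells exceeded MEFs by 0.82 ± 0.19 and full iPS cells by 1.72 ± 0.16, and converted minus partial cells was -2.53 ± 0.19 (adjusted p = 3.27e-08). Full iPS cells exceeded J1 cells by 0.69 ± 0.16. Adamts3, which trims the other end of procollagen, was also higher in partial cells than in MEFs, by 0.44 ± 0.14. Its group means of 4.06 to 4.54 are near background. Colgalt1, which adds galactose to collagen, was higher in partial than in full iPS cells by 0.58 ± 0.096, and full iPS minus J1 cells was -0.44 ± 0.096. Fkbp14, a folding helper, gave -0.94 ± 0.29 for converted minus partial cells, and Adamts14 gave -0.31 ± 0.10 for partial minus full iPS cells. Group means of Adamts14, 4.15 to 4.63, are also near background, and its partial and full iPS arrays overlapped.

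Most fibroblast markers were also lower than in MEFs. Of the 19, 13 were lower in partial cells against 10.0% of all genes and 15 in full against 17.8%. In converted cells 14 were lower against 17.9% and in J1 cells 16 against 17.5%. In each comparison 1 was higher, where 13.7%, 17.1%, 19.6% and 20.6% of all genes were in that order. Thy1 and Pdgfrb were lower in all 4 comparisons, with -1.90 ± 0.35 and -2.90 ± 0.41 in partial cells. Prrx1 was also lower in all 4, with -1.46 ± 0.38 there. The groups overlapped for Pdgfra and Twist2 in partial cells. For Pdgfra the partial difference was -1.28 ± 0.50 (adjusted p = 0.0783), and for Twist2 -0.52 ± 0.57 (adjusted p = 0.586). The marker higher in all 4 was Dcn, the fibril-binding proteoglycan decorin, at 1.42 ± 0.40, 1.55 ± 0.35, 1.48 ± 0.40 and 1.23 ± 0.40. Dcn read 7.84, 7.61 and 8.11 in MEFs and 9.83, 9.06 and 8.93 in partial cells, with replicate 1 the highest of the partial arrays.

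By position, 15 of the collagens formed 8 pairs of direct neighbours among protein-coding genes of the RefSeq table. In 3 pairs, Col3a1 with Col5a2, Col4a1 with Col4a2 and Col6a1 with Col6a2, both genes were lower in all 4 comparisons with MEFs. In Col4a5 with Col4a6 this held for Col4a5. Taken singly, 20 of the 44 collagens and at most 10.0% of all genes were lower in all 4. The share among neighbouring pairs of other genes was not counted, and a part of position was not tested. In the remaining 4 pairs (Col4a3 with Col4a4, Col9a1 with Col19a1, Col6a6 with Col6a5, and Col6a5 with Col6a4) every gene was dim.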

How the data were processed

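RNA was measured on 18 one-colour whole-transcript arrays. Per the labels' protocols, RNA was prepared with a column kit and sense-strand cDNA was labelled with biotin. The values used are the log2 expression values the authors deposited. The submitters' processing notes name RMA. Its version and the annotation build were not given in the sources used here.

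Of 34760 probe sets, 21640 had 1 symbol, 1321 had several and 11799 were not listed or had no symbol. Each gene took its probe set with the highest mean. A model with 1 mean per group over all 18 arrays was fitted with limma 3.58.1 in R 4.3.3 (lmFit, eBayes), with Benjamini-Hochberg adjustment over 19937 genes, and was tested on simulated data. Array values are printed for collagens with a group mean of at least 8 or a called 2-fold change. Col18a1, Col9a2 and the 5 partners and markers given by array (Nid2, Lama1, Lama4, Loxl4, Serpinh1) were added after their values were seen, as was Dcn. For partners, the 2 largest called rises and falls per comparison are named, and some of these genes are also given in other comparisons. The members and gene lists were chosen with earlier results of these data known.

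Alternatives were cyclic loess, housekeeping centring, the mean of a gene's probe sets, all probe sets tested, a filter on the mean over all arrays, a trended robust fit, fewer arrays, each full line alone, a replicate block, the feeder marker covariate and arrays left out. Arrays with the same replicate number deviated together between converted and partial cells (correlations 0.38, 0.14 and 0.12) and between EOS3F-28 and EOS3F-29 (0.54, 0.64 and 0.15). This pairing comes from the values, not from the labels. Promoter windows are from RefSeq (GRCm38.p6).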

Additional observations from a re-analysis of the deposited data

How the results depend on the processing

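No called difference of the 19 collagens given by array changed sign under any alternative run. A filter on a mean of at least 5 over all 18 arrays kept 7466 genes, with 17 of the 44 collagens. Of the 17, 16 were called in either direction in partial, 15 in full, 15 in converted and 16 in J1 cells against MEFs. Of the 7466 genes, 15.4%, 32.6%, 31.0% and 31.5% were called lower in that order, and 22.2%, 25.1%, 31.0% and 30.1% higher. The filter left out 27 collagens, among them Col4a5, Col5a3, Col11a1, Col14a1 and Col15a1, which were lower in all 4 comparisons without the filter. Leaving out single arrays gave 21 to 22 called in partial, 22 to 23 in full, 21 to 24 in converted and 23 to 25 in J1 cells. It gave 1 in both comparisons of partial cells with converted or full iPS cells, and 0 between the full lines. Between converted and partial cells 1 collagen was called, against 2 with cyclic loess, 3 with housekeeping centring, 5 with the replicate block, 5 without the replicate 1 arrays and 4 with the feeder marker covariate. In these alternative fits 12.3% to 20.2% of all genes were called lower and 5.20% to 11.5% higher. Between full iPS and J1 cells 1 collagen was called, against 2 with the mean of all probe sets, 4 with the replicate block and 0 without the replicate 1 arrays. The count was 2 with the covariate, 3 with EOS3F-28 alone, 0 with EOS3F-29 alone and 0 to 2 when single arrays were left out. Apart from single arrays left out, these fits called 1.33% to 5.42% of all genes lower and 0.542% to 2.59% higher. The cause of these changes in count was not tested. With the replicate block, Col12a1 (0.94, adjusted p = 0.0382) and Col6a3 (0.59, 0.0268) were among the collagens higher in full iPS than in J1 cells, where the numbers did not pair the arrays. Among these 19 the block changed no other call. Housekeeping centring moved the median of all genes to -0.14 between converted cells and MEFs and to -0.16 between converted and partial cells. The higher call of Col9a2 in partial cells was lost with cyclic loess (adjusted p = 0.138), with that centring (0.134) and without the replicate 1 arrays (0.0522), and in full iPS cells with EOS3F-28 alone (0.0739). The precision is limited by 3 arrays per group, and 20 of 44 collagens lie near background, which limits what falls can be measured.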
